A study of Mus musculus with 12 samples.

Results

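Tcf7, Lef1, Bcl11b, Gata3, Satb1, Tox and Myb encode transcription factors and chromatin regulators that act while a precursor cell commits to the T lineage. These 7 genes were taken by name from the gene list of the deposited matrices, 7 of 33696 genes, and measured in all 12 demultiplexed libraries. The rule that picked them uses names alone, but the names were chosen with earlier results of these data known, so their counts are descriptions of a chosen set. The libraries hold γδ T cells of the spleen, γδ T cells of the thymus and DN1-DN3 cells, which are thymic precursors without CD4 and CD8 that were sorted together, each as 2 libraries labelled WT and 2 labelled GFI1 KO. The mice were adult and on the C57BL6/J background, and the KO mice lacked GFI1, a zinc finger repressor, through a germline deletion in all tissues. Their WT counterparts carried no altered allele named in the sources used here.

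TCF1, the product of Tcf7, and LEF1 are HMG-box proteins that bind the same short DNA motif, recruit β-catenin or the TLE corepressors, and help to open T-lineage genes in thymic precursors. Notch signals in the thymus switch on Tcf7, GATA3 and BCL11B then take part in closing off the progenitor programmes, and SATB1, TOX and MYB act on chromatin folding, on passage through selection and on the survival of dividing thymocytes. In γδ T cells TCF1 and LEF1 are high in immature and naive cells and low in the cells that make IL-17, the γδT17 cells.

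Each of 6 droplet runs mixed cells of both genotypes that carried different hashtag antibodies, so each pool gave a WT-labelled and a KO-labelled library from a shared run, and libraries 1 and 2 of a group come from pools 1 and 2. B, myeloid and NK cells had been depleted with magnetic beads before the sort, and part of the CD8+ cells in the thymus. How many mice went into a pool was not given in the sources used here, and p-values measure the spread between these libraries, which may be technical. After filtering, 96911 of 97404 cells were kept, with 6795 to 11679 cells and a median of 4947 to 6853 UMIs (unique molecules) per cell in a library. No barcode was shared between the libraries of a pool, and libraries of different pools shared 5 to 34, at most 0.496%. Gfi1 RNA was not lower with the label KO. It stood at 11.8 and 18.0 CPM (the gene's UMIs per 1000000 UMIs of the library) in the splenic WT-labelled libraries of pools 1 and 2 and at 18.1 and 18.1 CPM in the KO-labelled ones, at 16.5 and 17.6 against 28.9 and 19.2 CPM among thymic γδ T cells, and at 44.7 and 40.6 against 70.6 and 56.6 CPM among DN1-DN3 cells. The 3′ tags may lie outside the deleted part of the gene and then check nothing about the labels, so the libraries are called WT-labelled and KO-labelled throughout. Xist, the RNA of the inactive X chromosome, did not exceed 0.374 CPM in any of the 4 libraries from spleen and between 739 and 1600 CPM in the 8 thymic ones. Ddx3y, a gene of the Y chromosome, stood between 26.0 and 28.0 CPM in the WT-labelled and between 11.6 and 14.2 CPM in the KO-labelled DN1-DN3 libraries, and its part in the results there was not tested. In the other libraries Ddx3y stood between 82.2 and 100 CPM (spleen) and between 24.3 and 35.8 CPM (thymic γδ T cells).

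Defining markers matched the labelled sorts. The summed γδ T markers (Trdc, Trgv1, Trgv4 and Trgv6, the measured ones of the list) stood between 1361 and 2291 CPM in the γδ libraries and between 175 and 231 CPM in the DN1-DN3 libraries. DN thymocyte markers (Ptcra, Il2ra, Rag1, Dntt and Kit) summed to between 1156 and 1663 CPM in the DN1-DN3 libraries and to at most 211 CPM in the others. Sums of the B-cell markers reached 442 CPM, in a WT-labelled splenic library.

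Windows around annotated transcript starts are shown for Tcf7, Lef1 and Myb, the 3 genes with the widest gap between labels in the spleen. TCF1 and LEF1 bind DNA at a known core and GFI1 at another. RefSeq windows of assembly GRCm38.p6, from 250 bases before to 50 bases after a transcript start, existed for 6 of the 7 genes, 14 windows in all, with none for Tox. The core searched for TCF/LEF was CTTTGA and that for GFI1 was AAATCA, each on both strands, and capitals mark a match on either strand. The first window below is the most upstream Tcf7 start of these windows, chr11:52282965-52283264 on the minus strand. It runs through the start codon of TCF1 into its coding sequence, so the promoter of full-length Tcf7 was not searched. The second is the most upstream Lef1 start, chr3:131110047-131110346 on the plus strand, and the third an internal Lef1 start, chr3:131156044-131156343, with 2 TCF/LEF matches. The last is the Myb start, chr10:21160935-21161234 on the minus strand.
Tcf7: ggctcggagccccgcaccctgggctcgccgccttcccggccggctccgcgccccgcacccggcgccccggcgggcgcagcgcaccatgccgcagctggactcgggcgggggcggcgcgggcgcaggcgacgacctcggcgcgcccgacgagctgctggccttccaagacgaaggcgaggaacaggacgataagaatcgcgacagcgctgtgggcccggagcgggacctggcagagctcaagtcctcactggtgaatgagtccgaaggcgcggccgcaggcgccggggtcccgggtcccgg
Lef1, most upstream start: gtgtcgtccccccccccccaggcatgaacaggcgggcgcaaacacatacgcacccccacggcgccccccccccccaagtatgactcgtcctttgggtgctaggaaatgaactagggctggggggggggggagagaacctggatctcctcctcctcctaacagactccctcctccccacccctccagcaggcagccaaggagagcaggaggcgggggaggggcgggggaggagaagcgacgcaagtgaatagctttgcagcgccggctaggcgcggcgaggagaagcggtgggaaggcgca
Lef1, internal start: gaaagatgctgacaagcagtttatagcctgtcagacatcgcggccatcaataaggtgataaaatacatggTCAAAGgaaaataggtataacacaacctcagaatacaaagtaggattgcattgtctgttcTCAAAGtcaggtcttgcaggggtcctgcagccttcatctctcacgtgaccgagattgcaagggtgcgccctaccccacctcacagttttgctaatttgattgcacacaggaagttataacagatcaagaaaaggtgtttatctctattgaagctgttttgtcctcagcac
Myb: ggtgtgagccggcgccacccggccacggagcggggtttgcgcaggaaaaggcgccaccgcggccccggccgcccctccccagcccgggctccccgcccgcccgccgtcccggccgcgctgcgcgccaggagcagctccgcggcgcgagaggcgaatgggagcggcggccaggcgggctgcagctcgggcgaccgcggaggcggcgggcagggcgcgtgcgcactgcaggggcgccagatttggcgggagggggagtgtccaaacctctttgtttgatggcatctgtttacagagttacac
The Tcf7, upstream Lef1 and Myb windows hold neither core. Bcl11b has a single window with 1 TCF/LEF match, and 3 of the Satb1 windows, of which 2 overlap, hold 1 GFI1 match each. Of all 32851 windows of this length, 16.0% hold the TCF/LEF core and 14.0% the GFI1 core, against 2 and 3 of the 14 windows here. Such matches are descriptions of letters in a window and not binding sites.

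In splenic γδ T cells the HMG-box pair and Myb had the lowest levels relative to WT of the 7 genes in the KO-labelled libraries. Tcf7 stood at 532 and 593 CPM in the WT-labelled libraries of pools 1 and 2 and at 35.0 and 43.4 CPM in the KO-labelled ones. For Lef1 the values were 716 and 719 CPM against 50.9 and 52.7 CPM. Myb, a regulator of progenitor and thymocyte survival, stood at 123 and 134 CPM against 8.24 and 9.64 CPM. The groups did not overlap for any of these genes. The log2 differences were -3.75 ± 0.15 for Tcf7 (SE, edgeR adjusted p = 6.48e-08), -3.70 ± 0.19 for Lef1 (edgeR adjusted p = 3.32e-07) and -3.75 ± 0.19 for Myb (edgeR adjusted p = 2.81e-07). Within pools the Tcf7 level was 15.2-fold and 13.7-fold lower, the Lef1 level 14.1-fold and 13.7-fold lower and the Myb level 14.9-fold and 13.9-fold lower. In such sums over a library, fewer cells of a type and less RNA per cell cannot be told apart.

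The other 4 genes moved less in the spleen. Satb1, an organiser of chromatin loops, stood at 525 and 543 CPM in the WT-labelled libraries against 198 and 206 CPM in the KO-labelled ones and fell by 1.31 ± 0.15 on the log2 scale (edgeR adjusted p = 5.24e-05). Tox, an HMG-box protein needed for CD4 T cell selection, stood at 921 and 852 CPM against 552 and 619 CPM, a log2 difference of -0.50 ± 0.15 (edgeR adjusted p = 0.0163). Neither gene overlapped between the groups. Leaving out WT library 1 or KO library 1 took the Tox call away, at edgeR adjusted p = 0.0861 and 0.0932. Bcl11b, which marks the loss of other lineage options, stood at 486 and 467 CPM with the label WT and at 557 and 549 CPM with the label KO, a log2 difference of 0.31 ± 0.10 (edgeR adjusted p = 0.0270). That call was lost without any 1 of the 4 libraries and without cells that had a Mki67 or Top2a UMI (edgeR adjusted p = 0.167). Of 13 alternatives 7 kept the Bcl11b call, with log2 differences between 0.21 and 0.33 over all 13. Within pools, the log2 ratio of the printed Bcl11b CPM was 0.20 and 0.23, below the fitted 0.31. Gata3, a zinc finger factor of T-cell specification, stood at 75.2 and 74.3 CPM against 78.5 and 80.7 CPM, with a log2 difference of 0.19 ± 0.10 that did not pass (edgeR adjusted p = 0.127). With the pool as a block Gata3 did pass, at an edgeR adjusted p of 0.0405. Of the 7 genes, 5 fell and 1 rose, where 54.8% of the 14914 genes tested were called in either direction, 26.1% as lower and 28.6% as higher. The median log2 difference was -1.31 over the 7 genes and 0.00 over all genes tested.

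**Figure D1:**
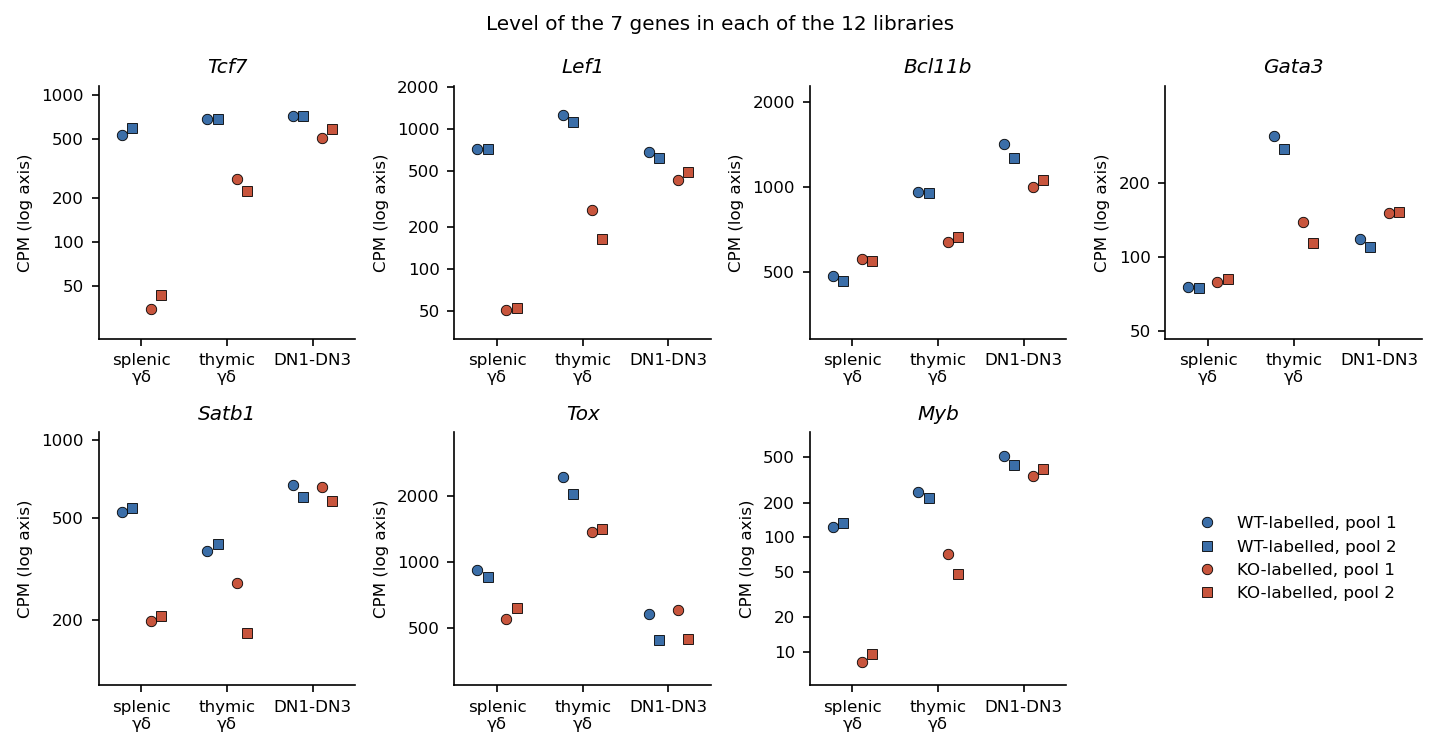
Level of each of the 7 genes in CPM, on a log axis, in the 12 libraries, by compartment; blue marks WT-labelled and red KO-labelled libraries, circles pool 1 and squares pool 2. Tcf7, Lef1 and Myb have the widest gap in the spleen, where the KO-labelled Tcf7 values are 35.0 and 43.4 CPM against 532 and 593 CPM.

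Among thymic γδ T cells all 7 genes were lower in the KO-labelled libraries, with Lef1 lower by more than Tcf7. Tcf7 stood at 685 and 684 CPM in the WT-labelled libraries and at 268 and 223 CPM in the KO-labelled ones. Lef1 stood at 1267 and 1129 CPM against 264 and 163 CPM, and Myb at 245 and 220 CPM against 71.9 and 47.7 CPM. Neither these nor the other 4 genes overlapped between the groups. The log2 differences were -1.36 ± 0.14 for Tcf7 (edgeR adjusted p = 2.97e-05), -2.38 ± 0.18 for Lef1 (edgeR adjusted p = 8.34e-06) and -1.84 ± 0.17 for Myb (edgeR adjusted p = 2.14e-05). Gata3 stood at 309 and 273 CPM against 139 and 114 CPM and fell by 1.09 ± 0.10 on the log2 scale (edgeR adjusted p = 1.62e-05). Satb1 stood at 371 and 395 CPM against 279 and 179 CPM, a log2 difference of -0.63 ± 0.15 (edgeR adjusted p = 0.00606). Its KO-labelled libraries lay far apart, so that the within-pool Satb1 level was 1.33-fold lower in pool 1 and 2.21-fold lower in pool 2. Tox, the gene with the highest thymic values, stood at 2433 and 2041 CPM against 1377 and 1413 CPM, a log2 difference of -0.56 ± 0.15 (edgeR adjusted p = 0.0110), and its call was lost without WT library 1 or KO library 1, at edgeR adjusted p = 0.0860 and 0.0671. Bcl11b stood at 962 and 954 CPM against 642 and 666 CPM, a log2 difference of -0.43 ± 0.10 (edgeR adjusted p = 0.00626), which missed the threshold without KO library 1 (edgeR adjusted p = 0.0520). All 7 genes were called lower here, beside 23.7% of all genes tested and 49.8% called in either direction, and their median log2 difference was -1.09.

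Shares of cells with a Mki67 or Top2a UMI and sums of cell-type markers also differed between the γδ T libraries. Cells with a Mki67 or Top2a UMI, genes of dividing cells, made up 6.29% and 4.29% of the splenic WT-labelled and 21.7% and 21.2% of the splenic KO-labelled libraries, but 39.2% and 42.2% against 25.2% and 22.2% of thymic γδ T cells. The splenic cycling markers (Mki67, Top2a, Birc5, Cdk1 and Ccnb1) summed to between 55.2 and 90.5 CPM against 69.5 and 86.5 CPM. These sums overlapped, with 1 of 5 markers higher and 2 lower, and so did not follow the splenic shares. The summed NK and ILC markers (Ncr1, Klrb1c, Eomes, Il2rb and Klrd1) stood between 717 and 802 CPM in the splenic WT-labelled and between 152 and 171 CPM in the KO-labelled libraries, with 5 of 5 lower. Sums of the αβ T markers (Trac, Cd4, Cd8a and Cd8b1) stood between 199 and 251 CPM against 60.0 and 65.2 CPM there, with 3 of 4 lower. Only 31.4% and 33.0% of the WT-labelled splenic γδ T cells had no Il2rb or Trac UMI, so such a UMI does not mark other cell types alone. This share takes both genes together and does not tell the lists apart. In the spleen the B-cell markers summed to between 222 and 442 CPM against 63.2 and 120 CPM (of 6 tested, 1 higher and 1 lower), the myeloid markers to between 28.6 and 33.2 CPM against 3.19 and 4.38 CPM (1 of 6 tested lower), and the DN thymocyte markers to between 55.3 and 57.3 CPM against 160 and 171 CPM (1 of 5 higher and 2 lower). Il2ra made up most of that KO-labelled sum, at 25.3 and 21.4 CPM against 169 and 158 CPM. Among thymic γδ T cells the B-cell markers summed to between 156 and 158 CPM against 64.2 and 81.6 CPM (1 of 6 tested higher), the myeloid markers to between 17.0 and 17.9 CPM against 6.06 and 10.2 CPM (2 of 6 tested lower) and the αβ T markers to between 65.2 and 70.0 CPM against 54.4 and 54.9 CPM (2 of 4 lower). The thymic DN thymocyte markers summed to between 174 and 211 CPM against 153 and 172 CPM (1 of 5 higher and 4 lower), the NK and ILC markers to between 122 and 129 CPM against 137 and 172 CPM (1 of 5 lower), and the cycling markers to between 1020 and 1245 CPM against 232 and 284 CPM (5 of 5 lower). Without B-type, myeloid-type and Cd4 or Cd8a cells, and without cells with a Mki67 or Top2a UMI, Tcf7, Lef1 and Myb stayed called in both γδ compartments, and so did the other 4 genes among thymic γδ T cells. The part of the other marker sums in these results was not tested.

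DN1-DN3 cells showed smaller differences. Cells with a Mki67 or Top2a UMI made up 55.1% and 52.3% of these WT-labelled and 40.9% and 45.7% of these KO-labelled libraries. Summed markers stood between 1639 and 1663 CPM against 1156 and 1447 CPM for DN thymocytes (1 of 5 lower), between 115 and 122 CPM against 136 and 264 CPM for B cells (2 of 6 tested higher), and between 14.6 and 16.7 CPM against 35.1 and 36.4 CPM for myeloid cells (1 of 6 tested higher). The αβ T markers summed to between 27.3 and 31.3 CPM against 72.0 and 164 CPM (1 of 4 higher). For γδ T markers the sums were between 226 and 231 CPM against 175 and 199 CPM (2 of 4 tested higher). Cycling markers summed to between 1118 and 1147 CPM against 691 and 834 CPM (1 of 5 lower). Without B-type, myeloid-type and Cd4 or Cd8a cells, and without cells with a Mki67 or Top2a UMI, the Gata3 and Bcl11b calls given below remained. The part of the other marker sums in the results below was not tested. Tcf7 stood at 721 and 721 CPM in the WT-labelled libraries and at 511 and 584 CPM in the KO-labelled ones, Lef1 at 683 and 620 CPM against 433 and 489 CPM, and Myb at 510 and 424 CPM against 340 and 394 CPM. The groups did not overlap, but none of these genes passed the test, with log2 differences of -0.40 ± 0.13 for Tcf7 (edgeR adjusted p = 0.0573), -0.49 ± 0.18 for Lef1 (edgeR adjusted p = 0.0684) and -0.34 ± 0.17 for Myb (edgeR adjusted p = 0.170). With the pool as a block Tcf7 and Lef1 were called, at edgeR adjusted p of 0.0147 and 0.0264. Gata3 was the gene that rose, from 118 and 109 CPM to 150 and 152 CPM, a log2 difference of 0.41 ± 0.10 (edgeR adjusted p = 0.0122). Bcl11b stood at 1428 and 1270 CPM against 1007 and 1062 CPM and fell by 0.38 ± 0.10 on the log2 scale (edgeR adjusted p = 0.0252). Satb1, with 671 and 602 CPM against 658 and 582 CPM, and Tox, with 581 and 442 CPM against 607 and 449 CPM, overlapped between the groups and followed the pool rather than the label. Their log2 differences were -0.04 ± 0.15 for Satb1 and 0.04 ± 0.15 for Tox. Of the 7 genes 2 were called, 1 in each direction, where 23.0% of all genes tested were called, 15.2% as higher and 7.72% as lower. Fitted on the 4 DN1-DN3 libraries alone, none of the 7 genes was called, with Gata3 at 0.43 (edgeR adjusted p = 0.0656) and Bcl11b at -0.36 (edgeR adjusted p = 0.213), so both calls rest on a spread estimated over all 12 libraries. The Gata3 call was lost without WT library 1 or WT library 2, at edgeR adjusted p = 0.0891 and 0.0663, and the Bcl11b call without WT library 1, WT library 2 or KO library 1, at edgeR adjusted p = 0.0986, 0.0653 and 0.101. Without KO library 2, by contrast, Tcf7, Lef1 and Myb were called too. Over all alternatives the log2 differences ranged between -0.59 and -0.19 for Tcf7, between -0.68 and -0.21 for Lef1 and between -0.64 and -0.07 for Myb.

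The size of the KO-WT difference itself depended on the compartment. The Tcf7 difference was further below zero in the spleen than in thymic γδ T cells, by -2.39 ± 0.19 on the log2 scale (edgeR adjusted p = 3.43e-05), as were that of Myb by -1.90 ± 0.24 (edgeR adjusted p = 0.000431) and that of Lef1 by -1.32 ± 0.25 (edgeR adjusted p = 0.00346). Gata3 and Bcl11b differed in the other direction, by 1.27 ± 0.14 (edgeR adjusted p = 0.000170) and 0.74 ± 0.15 (edgeR adjusted p = 0.00467), since both fell in the thymus and not in the spleen. Satb1 also differed, by -0.68 ± 0.21 (edgeR adjusted p = 0.0375), a call lost without any 1 of the 8 libraries but KO library 2 of the thymus, with edgeR adjusted p between 0.0741 and 0.101, and at -0.37 without KO library 1 of the thymus. It was also lost without cells with a Mki67 or Top2a UMI, at -0.42 (edgeR adjusted p = 0.251). The difference between thymic γδ T and DN1-DN3 cells was called for Lef1 at -1.88 ± 0.25 (edgeR adjusted p = 0.000881), Gata3 at -1.50 ± 0.14 (edgeR adjusted p = 0.000140), Myb at -1.50 ± 0.24 (edgeR adjusted p = 0.00214) and Tcf7 at -0.96 ± 0.19 (edgeR adjusted p = 0.00591). For Tox that difference was -0.60 ± 0.21 (edgeR adjusted p = 0.0698, and 0.0291 with the pool as a block). Of the 7 genes, 6 and 4 were called in these comparisons, where 29.6% and 21.9% of all genes tested were. Each compartment came from its own droplet runs, and the splenic libraries differed from the thymic ones in Xist as given above, so compartment and run, and for the spleen sex, cannot be told apart here. Ddx3y differed between the labels among DN1-DN3 cells, and its part in the comparison with those cells was not tested.

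**Figure D2:**
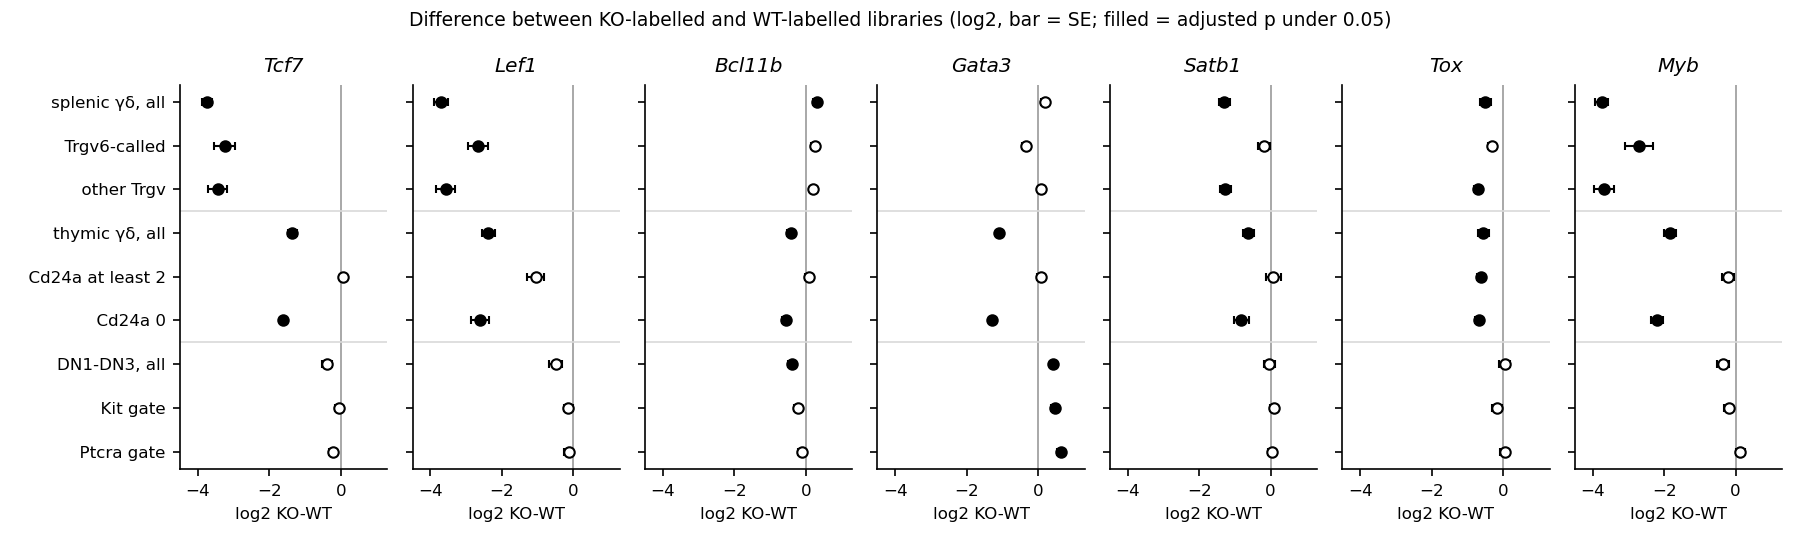
Difference between KO-labelled and WT-labelled libraries for each gene on the log2 scale, in 3 compartments and 6 classes of cells; points are fitted values, bars the SE, and filled points have an adjusted p under 0.05. Tcf7, Lef1 and Myb lie furthest left in splenic γδ T cells, and Gata3 lies left of zero for thymic γδ T cells and right of zero for DN1-DN3 cells.

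Shares of cells with at least 1 UMI followed the levels. To compare them, each cell was thinned to 3000 UMIs and shallower cells, 4.49% to 19.1% of a library, were left out. In the spleen 73.5% and 78.2% of WT-labelled cells had a Tcf7 UMI against 8.45% and 10.9% of KO-labelled cells, and Lef1 was seen in 73.5% and 77.1% against 11.2% and 13.0%. Before thinning the Tcf7 shares were 81.6% and 83.4% against 13.3% and 18.5%. Myb UMIs were found in 18.8% and 21.6% against 1.67% and 2.86% of thinned splenic cells. Free RNA can give such UMIs, and the cells that could show its share were few. B-type cells numbered 4 in the splenic libraries, 1 in the thymic γδ T libraries and 16 in the DN1-DN3 libraries, and of 11 in the second KO-labelled DN1-DN3 library 2 had a Tcf7 UMI, 18.2% (95% Wilson interval 5.14% to 47.7%), at a median of 10368 UMIs per cell. In the spleen 1 of 4 B-type cells had a Tcf7 UMI, 1 of 4 a Lef1 UMI and 0 of 4 a Myb UMI. These cells are too few to give a background share, so the low KO-labelled shares of Tcf7, Lef1 and Myb are given as measured and read neither as expression nor as background. With 2 libraries against 2, the smallest two-sided p of an exact permutation test is 0.333, so shares were not tested, and intervals cover counting error only.

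Among thinned thymic γδ T cells, 81.1% and 80.4% of WT-labelled and 34.5% and 35.0% of KO-labelled cells had a Tcf7 UMI, and 80.4% and 80.2% against 28.4% and 17.7% a Lef1 UMI. Gata3 was seen in 52.2% and 48.3% against 28.7% and 25.6%, and Myb in 41.6% and 36.5% against 11.0% and 7.33%. Bcl11b was seen in 82.5% and 82.7% against 77.1% and 79.9%, and Tox in 94.9% and 92.3% against 88.0% and 89.1%, shares near their ceiling that say little about the levels. Among DN1-DN3 cells Tcf7 was seen in 79.3% and 79.3% against 63.4% and 72.2%, Myb in 73.7% and 68.1% against 45.7% and 59.1%, and Gata3 in 28.3% and 26.7% against 33.1% and 34.6%.

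Counted together, splenic WT-labelled cells had UMIs of 3.91 and 4.05 of the 7 genes on average and KO-labelled cells of 2.21 and 2.35. Thymic γδ T cells had 4.91 and 4.81 against 3.09 and 2.84, and DN1-DN3 cells 4.79 and 4.56 against 4.09 and 4.32. The groups did not overlap in any compartment. All 7 genes were found in 0.977% and 1.17% of splenic WT-labelled cells and in 0 of 7464 and 2 of 11088 KO-labelled ones, and in 10.4% and 8.50% against 1.85% and 1.10% of thymic γδ T cells.

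**Figure D3:**
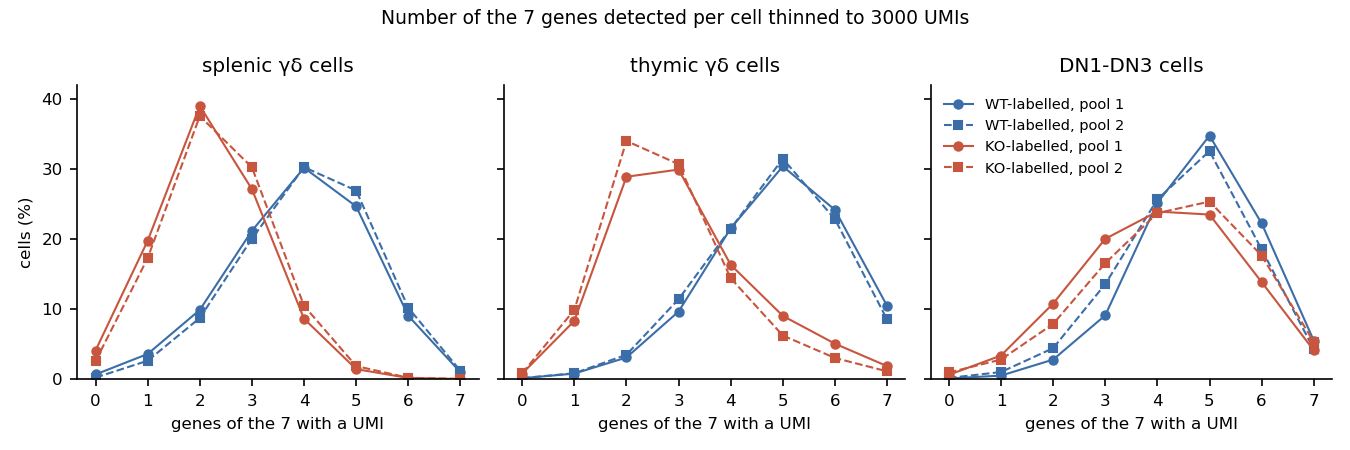
Share of cells, in percent, by how many of the 7 genes had a UMI in a cell thinned to 3000 UMIs; 1 panel per compartment, blue for WT-labelled and red for KO-labelled libraries, solid lines for pool 1 and dashed lines for pool 2. The KO-labelled curves lie to the left in splenic and thymic γδ T cells (means 2.21 and 2.35 against 3.91 and 4.05 in the spleen) and overlap more with the WT-labelled curves among DN1-DN3 cells.

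DN1-DN3 cells were split by Kit, the receptor of early progenitors, and Ptcra, the pre-TCR α chain of DN3 cells. The Kit gate took cells with at least 1 Kit UMI and fewer than 2 Ptcra UMIs, which were 982 and 839 WT-labelled and 460 and 486 KO-labelled cells, and the Ptcra gate cells with at least 2 Ptcra UMIs and no Kit UMI, which were 1350 and 1776 against 913 and 1982 cells. Both gates take deeper cells, with median depths of 7862 to 8947 UMIs in the Kit gate and 6420 to 7194 UMIs in the Ptcra gate. Cells with a Mki67 or Top2a UMI made up 60.2% to 67.5% of the Kit gate and 43.7% to 54.6% of the Ptcra gate. With the label WT, Bcl11b had a mean of 1260 CPM in the Kit gate and 1391 CPM in the Ptcra gate. The Kit gate thus does not hold early progenitors alone. Lef1 rose and Tox fell from the Kit to the Ptcra gate. In the WT-labelled libraries Lef1 stood at 482 and 478 CPM in the Kit gate and at 766 and 701 CPM in the Ptcra gate, and in the KO-labelled ones at 424 and 433 CPM against 749 and 595 CPM. Tox stood at 693 and 595 CPM against 400 and 310 CPM with the label WT, and at 604 and 517 CPM against 407 and 326 CPM with the label KO. The gates did not overlap for either gene in either genotype. Log2 differences between the gates were 0.66 ± 0.12 for Lef1 (edgeR adjusted p = 0.00372 with the label WT and 0.00368 with the label KO; with at least 2 Kit and at least 4 Ptcra UMIs, 1.68 with the label WT and 1.16 with the label KO), and -0.82 ± 0.13 (edgeR adjusted p = 0.00198) and -0.60 ± 0.13 (edgeR adjusted p = 0.0117) for Tox. Of the 7 genes 2 were called in each genotype, where 8.33% of the 12071 genes tested were called with the label WT and 13.1% with the label KO.

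These gate calls rested on few libraries. Without WT library 1 or 2 the Lef1 call with the label WT was lost (edgeR adjusted p = 0.363 and 0.180) and so was that of Tox (edgeR adjusted p = 0.0913 and 0.128), while with the label KO the Lef1 call was lost without KO library 1 (edgeR adjusted p = 0.0635) and the Tox call without KO library 2 (edgeR adjusted p = 0.0868). With the label KO, Lef1 also lost its call when cells were thinned to equal depth before gating (0.47, edgeR adjusted p = 0.0719), and Tox when cells in both gates were counted in both (-0.43, edgeR adjusted p = 0.132). With the pool as a block 5 of the 7 genes were called in each genotype. The added genes were Bcl11b (log2 differences of 0.19 and 0.31, edgeR adjusted p = 0.0355 and 0.00101) and Gata3 (-0.36 and -0.20, edgeR adjusted p = 0.000595 and 0.0359) in both genotypes, Satb1 with the label WT (0.23, edgeR adjusted p = 0.0222) and Myb with the label KO (0.19, edgeR adjusted p = 0.0452). Tcf7 stood at 684 and 697 CPM in the Kit gate and at 741 and 711 CPM in the Ptcra gate with the label WT, a difference of 0.12 ± 0.11 that did not pass. In thinned cells 76.7% and 78.3% of the WT-labelled Kit gate and 76.8% and 73.4% of the Ptcra gate had a Tcf7 UMI. Lef1 shares in the Kit gate ran against the CPM between the genotypes and give no order.

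Within a gate, Gata3 was higher with the label KO. In the Kit gate Gata3 stood at 121 and 126 CPM in the WT-labelled and at 175 and 163 CPM in the KO-labelled libraries, and in the Ptcra gate at 94.3 and 92.3 CPM against 140 and 150 CPM. Neither gate showed overlap, and the log2 differences were 0.47 ± 0.11 (edgeR adjusted p = 0.0157) and 0.64 ± 0.11 (edgeR adjusted p = 0.00128). The call in the Kit gate was lost without WT library 1 or 2 (edgeR adjusted p = 0.309 and 0.122) and without cells with a Mki67 or Top2a UMI, which left 169 to 319 cells per library, at a log2 difference of 0.34 (edgeR adjusted p = 0.204), and that in the Ptcra gate without WT library 1 (edgeR adjusted p = 0.0599). Gata3 was the single gene of the 7 called in each gate, where 8.91% and 14.8% of all genes tested were called. Tcf7 in the same gates stood at 651 and 647 CPM and at 641 and 606 CPM with the label KO, log2 differences of -0.06 ± 0.11 and -0.22 ± 0.11. With the pool as a block the Tcf7 difference in the Ptcra gate passed (edgeR adjusted p = 0.00666), as did a Bcl11b difference of -0.22 in the Kit gate (edgeR adjusted p = 0.0161). The difference between the gates in their KO-WT difference was called for none of the 7 genes by edgeR without a block, with 0 of the 7 at an unadjusted p under 0.05 and edgeR adjusted p between 0.771 (Myb) and 1.00 (Lef1), and for 0.141% of all genes tested. DESeq2 called none of the 7 either, with Myb alone at an unadjusted p under 0.05. Both gates come from the same libraries, and with the library as a block Myb was called (0.33 ± 0.07, edgeR adjusted p = 0.00907).

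With the label KO, Tcf7, Lef1, Myb and Bcl11b were lowest in cells of neither gate that had an Il2rb or Trac UMI. With the label WT, Myb and Bcl11b also had their lowest means in that class, at 267 and 890 CPM. In either gate and in the other neither-gate cells, these WT-labelled means were 463 to 527 CPM for Myb and 1260 to 1418 CPM for Bcl11b. In the KO-labelled DN1-DN3 libraries 41.9% and 22.8% of cells had an Il2rb or Trac UMI, genes of innate-like and αβ T cells, against 8.91% and 7.95% of WT-labelled cells, and the summed NK and ILC markers stood between 109 and 207 CPM against 23.3 and 27.7 CPM, with 4 of 5 higher. This split was made after the values were seen. An Il2rb or Trac UMI was also common in the γδ T sorts, so it does not mark innate-like or αβ T cells alone. Cells lacking it were 31.4% and 33.0% of splenic and 50.9% and 49.3% of thymic γδ T cells in WT-labelled libraries. In KO-labelled γδ T libraries they were 40.5% and 43.0% in the spleen and 45.5% and 46.2% in the thymus. Which cell types carried this UMI among DN1-DN3 cells was not tested. Among cells in neither gate with such a UMI, Tcf7 stood at 687 and 660 CPM with the label WT and at 280 and 338 CPM with the label KO, Lef1 at 712 and 626 CPM against 156 and 230 CPM, and Myb at 317 and 218 CPM against 96.2 and 136 CPM. Bcl11b stood at 1001 and 780 CPM against 584 and 551 CPM there, also without overlap, and in neither-gate cells without such a UMI at 1227 and 1111 CPM with the label KO. Gata3 overlapped in cells with such a UMI, at 143 and 134 CPM against 125 and 135 CPM. Among cells in neither gate without such a UMI, Tcf7 stood at 735 and 747 CPM against 631 and 644 CPM, Lef1 at 712 and 626 CPM against 548 and 527 CPM, and Gata3 at 126 and 112 CPM against 174 and 161 CPM, none with overlap. Myb overlapped in that class, at 514 and 432 CPM against 440 and 403 CPM. Without all cells with an Il2rb or Trac UMI the Gata3 call remained in the whole sort and that of Bcl11b did not, at a log2 difference of -0.21 (edgeR adjusted p = 0.206).

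**Figure D4:**
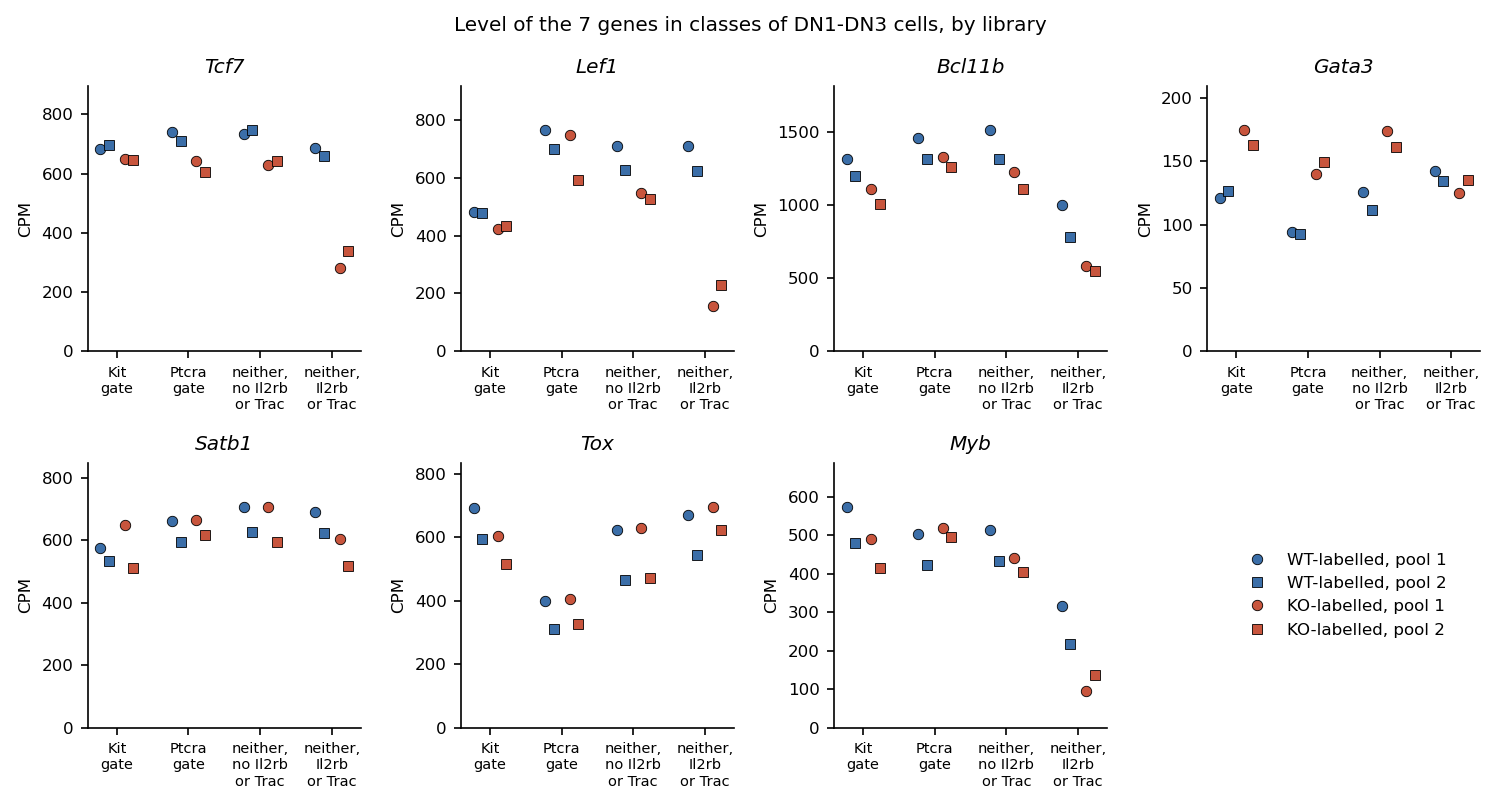
Level of each gene in CPM in 4 classes of DN1-DN3 cells, by library (blue WT-labelled, red KO-labelled, circles pool 1, squares pool 2; axes start at 0). The KO-labelled values of Tcf7, Lef1 and Myb drop in the cells of neither gate with an Il2rb or Trac UMI, where Tcf7 is at 280 and 338 CPM against 687 and 660 CPM, and Gata3 is raised in the other 3 classes. Myb and Bcl11b are lowest in the cells of neither gate with such a UMI with the label WT as well.

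Thymic γδ T cells were split by Cd24a, a surface protein of immature thymocytes that is lost on maturation. Cells with at least 2 Cd24a UMIs numbered 599 and 801 in the WT-labelled and 160 and 115 in the KO-labelled libraries, at median depths of 12798 to 17008 UMIs, and cells without a Cd24a UMI numbered 5398 and 6033 against 6355 and 7271, at 5617 to 6118 UMIs. In Cd24a-high cells Tcf7 overlapped between the groups, at 728 and 760 CPM against 849 and 718 CPM, a log2 difference of 0.06 ± 0.09 (edgeR adjusted p = 0.733). Bcl11b, Gata3 and Satb1 overlapped as well. Myb stood at 277 and 271 CPM against 238 and 235 CPM and did not pass (log2 difference -0.22 ± 0.17, edgeR adjusted p = 0.496). Lef1 was lower without overlap, at 1338 and 1063 CPM against 590 and 578 CPM, a log2 difference of -1.05 ± 0.24 that just missed the threshold (edgeR adjusted p = 0.0537, and 0.0203 with the pool as a block). Tox alone was called, at 1667 and 1332 CPM against 986 and 968 CPM and a log2 difference of -0.63 ± 0.11 (edgeR adjusted p = 0.0130), where 6.37% of the 13630 genes tested were called. That Tox call was lost with a limit of 4 Cd24a UMIs (log2 difference -0.44, edgeR adjusted p = 0.390) and without WT library 1, KO library 1 or KO library 2 (edgeR adjusted p = 0.0628, 0.0932 and 0.0577).

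Cells without a Cd24a UMI showed the full set of differences. Of 9 γδT17 genes, 8 were higher and 1 was lower in them with the label KO (median log2 difference 3.87), against 5 higher in Cd24a-high cells (median 1.18), and the part of this in the values below was not tested. Tcf7 stood at 666 and 652 CPM against 205 and 183 CPM, Lef1 at 1227 and 1121 CPM against 223 and 126 CPM, Gata3 at 321 and 285 CPM against 122 and 101 CPM, and Myb at 230 and 193 CPM against 50.4 and 33.2 CPM. All 7 genes fell without overlap, with log2 differences of -1.62 ± 0.09 for Tcf7 (edgeR adjusted p = 4.67e-07), -2.61 ± 0.25 for Lef1 (edgeR adjusted p = 0.000118), -1.29 ± 0.10 for Gata3 (edgeR adjusted p = 3.70e-06) and -2.20 ± 0.16 for Myb (edgeR adjusted p = 1.22e-05), where 54.0% of all genes tested were called and 25.7% were called lower. Satb1 lost its call without WT library 1 or 2 (edgeR adjusted p = 0.0647 and 0.0761).

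Between the Cd24a classes the KO-WT difference itself differed for Myb by 1.98 ± 0.23 on the log2 scale (edgeR adjusted p = 0.000823), Tcf7 by 1.68 ± 0.12 (edgeR adjusted p = 5.61e-05), Lef1 by 1.56 ± 0.33 (edgeR adjusted p = 0.0161), Gata3 by 1.37 ± 0.14 (edgeR adjusted p = 0.000237) and Bcl11b by 0.65 ± 0.14 (edgeR adjusted p = 0.00850), each nearer to zero in Cd24a-high cells. These are 5 of the 7 genes, where 25.0% of all genes tested were called. Both classes of a library entered this fit as separate samples. The Lef1 difference lost its call without WT library 1 or 2 (1.65 and 1.47, edgeR adjusted p = 0.107 and 0.136), without dividing cells, which left 67 and 35 KO-labelled Cd24a-high cells (1.66, edgeR adjusted p = 0.0798), and without the filter on low counts (1.52, edgeR adjusted p = 0.0534). Its size was thus about the same in each of these fits. That of Bcl11b was lost without WT library 1 or KO library 1 (edgeR adjusted p = 0.110 and 0.0658) and with at least 4 Cd24a UMIs (edgeR adjusted p = 0.0794). Satb1 was not called, at 0.89 ± 0.30 (edgeR adjusted p = 0.0692), but was with DESeq2 (adjusted p = 0.00814), without dividing cells (edgeR adjusted p = 0.0358) and without KO library 1 (1.23, edgeR adjusted p = 0.00356). With the label WT alone, cells without Cd24a had less Tcf7 (log2 difference -0.27 ± 0.09, edgeR adjusted p = 0.0273) and Myb (-0.46 ± 0.16, edgeR adjusted p = 0.0390) and more Bcl11b (0.31 ± 0.10, edgeR adjusted p = 0.0271) and Tox (0.64 ± 0.11, edgeR adjusted p = 0.00112) than Cd24a-high cells, where 48.6% of all genes tested were called. Without cells with a Mki67 or Top2a UMI none of these 4 calls remained, at log2 differences of -0.17 for Tcf7 (edgeR adjusted p = 0.266), -0.39 for Myb (edgeR adjusted p = 0.278), 0.28 for Bcl11b (edgeR adjusted p = 0.114) and 0.06 for Tox (edgeR adjusted p = 0.784). The Cd24a-high class then held 165 and 197 WT-labelled cells in place of 599 and 801. Cells with such a UMI were 72.5% and 75.4% of the Cd24a-high and 33.6% and 35.5% of the Cd24a-negative WT-labelled cells. Without WT library 1 or WT library 2 the Tcf7, Bcl11b and Myb calls were lost, with edgeR adjusted p between 0.0936 and 0.388. Gata3 passed with the pool as a block (0.25, edgeR adjusted p = 0.00622).

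Splenic γδ T cells were split by the Trgv gene with the most UMIs, since cells with Trgv6 are the main γδT17 type. Trgv6-called cells numbered 188 and 229 in the WT-labelled and 3422 and 4613 in the KO-labelled libraries. Within them Tcf7 stood at 206 and 351 CPM against 22.2 and 37.0 CPM, Lef1 at 185 and 362 CPM against 40.7 and 46.8 CPM, and Myb at 23.8 and 73.3 CPM against 6.82 and 8.76 CPM. The groups did not overlap, though the WT-labelled libraries lay far apart. Log2 differences were -3.26 ± 0.29 for Tcf7 (edgeR adjusted p = 0.000608), -2.67 ± 0.27 for Lef1 (edgeR adjusted p = 0.00102) and -2.69 ± 0.40 for Myb (edgeR adjusted p = 0.00506; without WT library 2 -1.66, edgeR adjusted p = 0.0430; without KO library 2 -2.84, edgeR adjusted p = 0.0517), the 3 genes of the 7 called, all lower, where 12.8% of the 12927 genes tested were called and 6.61% were called lower. With the pool as a block 6 were called, with Bcl11b (0.25, edgeR adjusted p = 0.0352), Gata3 (-0.33, edgeR adjusted p = 0.0431) and Tox (-0.30, edgeR adjusted p = 0.0452) added. Satb1 overlapped, at 166 and 277 CPM against 191 and 203 CPM.

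Cells called for another Trgv gene, 4178 and 6424 against 1761 and 3379, had lower Tcf7, Lef1, Myb, Satb1 and Tox with the label KO. In the same class 9 of 9 γδT17 genes were higher (median log2 difference 3.92), against 7 higher and 1 lower in Trgv6-called cells (median 0.78), so the KO-labelled and WT-labelled cells of the class differed in their γδT17 genes too, and the part of this in the values below was not tested. Tcf7 stood there at 561 and 606 CPM against 55.1 and 48.0 CPM, Lef1 at 754 and 727 CPM against 67.2 and 53.1 CPM, Myb at 119 and 137 CPM against 8.64 and 10.4 CPM, and Satb1 at 537 and 547 CPM against 224 and 208 CPM. Log2 differences were -3.45 ± 0.28 for Tcf7 (edgeR adjusted p = 2.68e-05), -3.57 ± 0.27 for Lef1 (edgeR adjusted p = 1.64e-05), -3.68 ± 0.28 for Myb (edgeR adjusted p = 1.81e-05), -1.28 ± 0.16 for Satb1 (edgeR adjusted p = 4.78e-05) and -0.72 ± 0.11 for Tox (edgeR adjusted p = 0.000150), 5 of the 7 genes, all lower, where 55.6% of all genes tested were called and 27.1% were called lower. Bcl11b passed with the pool as a block (0.21, edgeR adjusted p = 0.0144). In cells called for Trgv1, Trgv2 or Trgv4, Tcf7 stood between 559 and 609 CPM with the label WT and between 46.8 and 118 CPM with the label KO, so none of these 3 classes overlapped between the labels. With the label KO they held 172 and 264, 1322 and 2793, and 66 and 73 cells. The KO-labelled cells with another Trgv call were thus mostly Trgv2-called. The KO-WT difference was called as different between Trgv6-called and other cells for Satb1, by 1.08 ± 0.23 on the log2 scale (edgeR adjusted p = 0.0112, and 0.112 without KO library 2), where 12.1% of all genes tested were called. For Tcf7 that difference was 0.19 ± 0.37 (edgeR adjusted p = 0.810). Both classes of a library entered this fit as separate samples. With the pool as a block Gata3 (-0.40, edgeR adjusted p = 0.0404) and Tox (0.41, edgeR adjusted p = 0.0479) were called as well. Lef1 and Myb were called without WT library 2 (1.48, edgeR adjusted p = 0.0151, and 1.92, edgeR adjusted p = 0.00932) and without the filter on low counts (0.91, edgeR adjusted p = 1.84e-06, and 0.99, edgeR adjusted p = 4.36e-05). Some γ-chain variable genes are alike in sequence, and a cell's Trgv call is uncertain where counting divided its reads between them.

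The same calls in the thymus, described without a test, gave 41 and 57 Trgv6-called cells with the label WT, 0.601% and 0.715% of a library, and 2028 and 2691 with the label KO, 29.8% and 35.3%. Cells called for another Trgv gene numbered 4839 and 5696 against 2569 and 2362. In these Tcf7 stood at 695 and 699 CPM with the label WT and at 395 and 344 CPM with the label KO, which was 1.76-fold lower in pool 1 and 2.03-fold lower in pool 2. Lef1 stood at 1282 and 1162 CPM against 410 and 309 CPM, and Myb at 247 and 223 CPM against 111 and 89.1 CPM. Satb1 overlapped there, at 349 and 374 CPM against 367 and 258 CPM, while the other 6 genes did not. In Trgv6-called cells Tcf7 stood at 657 and 453 CPM against 90.4 and 124 CPM, from few WT-labelled cells. The whole thymic sort thus held different shares of the Trgv classes in the 2 genotypes, and the part of this in its KO-WT differences was not tested.

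**Figure D5:**
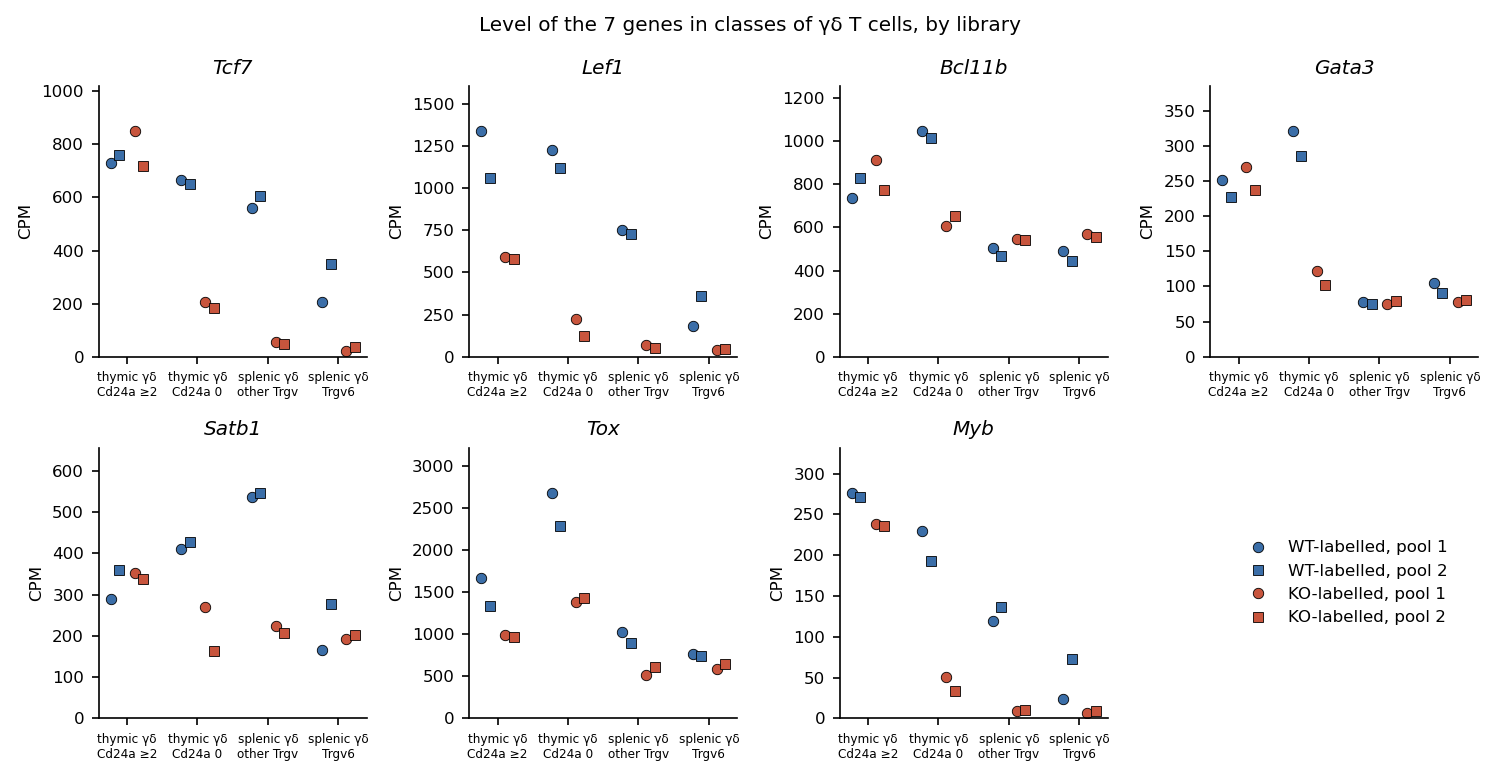
Level of each gene in CPM in Cd24a classes of thymic and Trgv classes of splenic γδ T cells, by library (blue WT-labelled, red KO-labelled, circles pool 1, squares pool 2; axes start at 0). Tcf7 overlaps between the labels in the Cd24a-high class and is separated in the other 3 classes, and Lef1 is lower with the label KO in all 4.

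With the label WT alone, no step between compartments was called for Tcf7. Compartments came from different droplet runs, and the splenic libraries differed from the thymic ones in Xist, so compartment and run, and for the spleen sex, cannot be told apart in these steps. The order of Tcf7 from high to low was DN1-DN3 cells (mean 721 CPM), thymic γδ T cells (685 CPM) and splenic γδ T cells (563 CPM), and neither step was called, at log2 differences of -0.06 ± 0.13 and -0.20 ± 0.13 (edgeR adjusted p = 0.759 and 0.226). From DN1-DN3 to thymic γδ T cells, Tox rose by 2.15 ± 0.16 (edgeR adjusted p = 5.03e-06), Gata3 by 1.38 ± 0.10 (edgeR adjusted p = 4.16e-06) and Lef1 by 0.90 ± 0.18 on the log2 scale (edgeR adjusted p = 0.00209). Myb, Satb1 and Bcl11b were lower, with log2 differences of -0.98 ± 0.17 (edgeR adjusted p = 0.000957), -0.71 ± 0.15 (edgeR adjusted p = 0.00342) and -0.47 ± 0.10 (edgeR adjusted p = 0.00402). From thymic to splenic γδ T cells, the log2 differences were -1.88 ± 0.10 for Gata3 (edgeR adjusted p = 9.46e-07), -1.26 ± 0.15 for Tox (edgeR adjusted p = 0.000108), -0.93 ± 0.10 for Bcl11b (edgeR adjusted p = 6.43e-05), -0.78 ± 0.17 for Myb (edgeR adjusted p = 0.00364) and -0.66 ± 0.18 for Lef1 (edgeR adjusted p = 0.0108), while Satb1 rose by 0.56 ± 0.15 (edgeR adjusted p = 0.0118). Of the 7 genes 6 were called in each step, where 47.2% and 48.9% of all genes tested were called. The last 2 of these calls, Lef1 and Satb1, were lost without dividing cells (edgeR adjusted p = 0.403 and 0.175) and without WT library 1 of the thymus. That of Lef1 was also lost without either splenic WT library. Over all alternatives these log2 differences came as near to zero as -0.26 for Lef1 and 0.32 for Satb1.

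Over all 6 groups the order of the levels differed from gene to gene. Tcf7 and Lef1 ended with the same groups, thymic and then splenic KO-labelled γδ T cells, and their neighbours did not overlap except for Tcf7 in splenic WT-labelled (mean 563 CPM) and DN1-DN3 KO-labelled cells (547 CPM). Bcl11b was highest in WT-labelled and then KO-labelled DN1-DN3 cells (means 1349 and 1034 CPM) and lowest in WT-labelled splenic cells (477 CPM), with no overlap between neighbours. Gata3 led in WT-labelled thymic γδ T cells (291 CPM), and its KO-labelled thymic γδ T and WT-labelled DN1-DN3 groups overlapped (126 and 114 CPM). Satb1 overlapped between both DN1-DN3 groups (637 and 620 CPM) and between the KO-labelled thymic and splenic γδ T groups (229 and 202 CPM). Tox led in both thymic γδ T groups (2237 and 1395 CPM), and KO-labelled spleen and both DN1-DN3 groups (586, 528 and 511 CPM) overlapped one with the next. Myb ran from 467 CPM in WT-labelled DN1-DN3 cells to 8.94 CPM in KO-labelled splenic cells with no overlap between neighbours.

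Genes with a pattern most like that of each member were taken over the 12 libraries by Pearson's r of log2(CPM + 1), among the 6724 genes whose mean reached 20 CPM. The libraries share runs, depth and compartments, so r describes these 12 points. Tcf7 was most like Aff3 (r = 0.996), Cers6 (0.992) and Trat1 (0.991), Lef1 like Kdm6b (0.991), Tmem108 (0.990) and Tet1 (0.986), and Myb like Ivd (0.993), Adk (0.993) and Gria3 (0.993). Bcl11b was most like Pola1 (0.992), Tada2a (0.990) and Rad51b (0.989), of which Pola1 and Rad51b serve DNA replication and repair. Gata3 followed Heg1 (0.984), Pdha1 (0.984) and Ddx19a (0.962), Satb1 followed Hdgfl3 (0.973), Mob3b (0.971) and Rlim (0.970), and Tox followed Tespa1 (0.949), Aff4 (0.943) and Myo6 (0.936). Among the 7 genes r was 0.962 between Tcf7 and Lef1, 0.953 between Tcf7 and Myb and -0.00 between Tox and Myb.

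Genes that work beside these factors were counted in lists. Of 10 Wnt and TCF cofactors and targets, 5 rose and 4 fell in the spleen, 2 rose and 5 fell in thymic γδ T cells and 3 rose among DN1-DN3 cells, with median log2 differences of 0.15, -0.32 and 0.02 beside 0.00, -0.00 and -0.02 over all genes tested. Of all genes tested, 54.8%, 49.8% and 23.0% were called in these 3 comparisons, the share against which the counts of each list are to be read. Sox13, an HMG-box factor of γδT17 cells, rose from 28.8 and 25.1 CPM to 199 and 210 CPM in the spleen (log2 difference 3.02), and Tle1, a TCF corepressor, rose in both γδ compartments (1.16 and 1.72). Sox4 fell from 74.2 and 82.1 CPM to 2.56 and 3.99 CPM in the spleen (-4.47) and from 449 and 394 CPM to 111 and 70.9 CPM in the thymus (-2.10), and Tcf7l2, a paralog of Tcf7, fell in both (-3.73 and -1.83). Axin2, a target of β-catenin, rose by 0.43 among γδ T cells of the thymus and by 0.86 in DN1-DN3 cells, where the TCF corepressor Tle4 rose too (0.87). Of 11 paralogs of the members, 5 fell in the spleen, 7 fell in thymic γδ T cells, and 1 rose and 2 fell among DN1-DN3 cells (medians -0.74, -1.74 and -0.48). Tox2 and Tox3 fell in thymic γδ T cells (-2.80 and -2.60), Tox3 also in the spleen (-2.46) and among DN1-DN3 cells (-0.75), where Tox2 rose (0.72). Splenic Tox3 was near the floor, at 0.451 and 0.655 CPM with the label WT.

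Upstream and stage genes were counted likewise, where 54.8% of all genes tested were called in the spleen, 49.8% in thymic γδ T cells and 23.0% in DN1-DN3 cells. The shares of called progenitor genes in all 3 compartments, of pre-TCR genes in the spleen and in DN1-DN3 cells, and of Notch genes in DN1-DN3 cells do not exceed these. Of 7 Notch pathway genes 6 fell in the spleen, 3 fell and 1 rose in thymic γδ T cells, and 1 rose among DN1-DN3 cells (medians -2.82, -1.15 and -0.21). Hes1, a direct Notch target, fell from 8.15 and 6.42 CPM to 0.534 and 0.489 CPM in the spleen (-3.74), and Heyl, at 1.31 and 0.974 CPM with the label WT, was near zero with the label KO. Nrarp, a Notch feedback gene, rose in thymic γδ T cells (3.37) while Hes5 and Notch3 fell (-2.21 and -1.70), and Dtx1 rose among DN1-DN3 cells (0.93). Thymic Nrarp stood at 0.831 and 1.03 CPM and thymic Hes5 at 1.31 and 1.24 CPM with the label WT. Of 6 pre-TCR and recombination genes, 1 rose and 2 fell in the spleen, 1 rose and 4 fell in thymic γδ T cells and none was called among DN1-DN3 cells (medians -1.34, -1.29 and -0.02). Il2ra, the IL-2 receptor α chain, was the gene that rose (2.91 and 2.60), and Dntt, the enzyme that adds bases to receptor joints, fell (-4.40 and -2.28), as did Notch3 at at most 0.356 CPM in the spleen. Of 14 progenitor genes silenced at commitment, 1 rose and 5 fell in the spleen, 1 rose and 3 fell in thymic γδ T cells and 3 fell among DN1-DN3 cells (medians -1.81, -1.04 and -0.57). Kit fell in both γδ compartments (-4.08 and -2.13), Erg in all 3 (-4.24, -2.09 and -0.92), Meis1 rose in both γδ compartments (1.27 and 1.59), and Cd34 fell among DN1-DN3 cells (-1.58). Some of these levels were near the floor. With the label WT, Erg stood at 0.760 and 0.706 CPM in the spleen and Meis1 at 0.594 and 0.977 CPM in thymic γδ T cells.

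Receptor, circulation and γδT17 genes were counted last, beside the same shares of 54.8%, 49.8% and 23.0% of all genes called. Of 12 T-cell receptor and signalling genes 6 rose and 5 fell in the spleen, 6 rose and 4 fell in thymic γδ T cells, and 6 rose among DN1-DN3 cells (medians 0.20, 0.33 and 0.39). Lck, the kinase of the CD4 and CD8 coreceptors, fell from 475 and 557 CPM to 19.1 and 21.7 CPM in the spleen (-4.57) and fell in the thymus (-1.54), Zap70 rose in all 3 compartments (1.23, 1.25 and 1.33), Lat rose in the spleen (1.25) and Cd3g in thymic γδ T cells (1.20). The adhesion receptor Cd2 fell in the spleen (-2.91) and rose among DN1-DN3 cells (2.82), and Cd6 fell in thymic γδ T cells (-1.28). Of 7 circulation and naive genes 4 fell in the spleen, 4 fell and 1 rose in thymic γδ T cells, and 6 rose among DN1-DN3 cells (medians -1.47, -0.76 and 1.55). Ccr7, a homing receptor of lymph nodes, fell in the spleen (-4.35), Cd27 fell in thymic γδ T cells (-1.73) where Il7r rose (2.26), and S1pr1 and Klf2, egress genes, rose among DN1-DN3 cells (3.88 and 2.92). Of 9 γδT17 genes 9 rose in the spleen, 8 in the γδ T cells of the thymus and 9 in DN1-DN3 cells (medians 3.71, 4.04 and 3.55). Il17a stood at 0.546 and 0.907 CPM against 26.3 and 43.0 CPM in the spleen and at 0.916 and 1.19 CPM against 95.7 and 93.4 CPM in the thymus, Il1r1 at 37.0 and 28.8 CPM against 492 and 499 CPM in the spleen, and Cxcr6, a chemokine receptor, at 45.8 and 49.6 CPM against 1029 and 1138 CPM in the thymus. Among DN1-DN3 cells Il17a stood at 0.0647 and 0.0321 CPM against 8.51 and 2.83 CPM and Cxcr6 at 15.6 and 14.5 CPM against 333 and 104 CPM.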

How the data were processed

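Droplet 3′ RNA-seq was run on 6 pools of hashtagged WT and GFI1 KO cells. The authors aligned reads with Cell Ranger 8.0.1 to GRCm39, per the submitters' processing notes, assigned cells to hashtags with hashsolo, and deposited raw UMI counts per gene and cell for 12 demultiplexed libraries. As in the study's methods, cells with fewer than 500 UMIs, fewer than 200 genes or over 20% mitochondrial counts were removed. Cross-genotype doublets had been handled by the hashtags, and no further doublet caller was run. Each library held between 42091895 and 71663962 UMIs.

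Counts were summed per library and class of cells. After leaving out 9545 ribosomal, Gm and mitochondrial genes by name, they were tested with edgeR 4.0.16 (quasi-likelihood F test, TMM, filterByExpr, robust, two-sided), with Benjamini-Hochberg adjustment over all genes tested and a threshold of 0.05. The SE is the log2 difference divided by the square root of F. A whole-compartment fit used all 12 libraries, and each split of a compartment had its own fit. In the fits of a split the classes of a library entered as separate samples, and the library was a block for the Kit and Ptcra gates alone. CPM was computed on the total UMIs of the library or of the class of cells. Fitted log2 differences use TMM scaling without the genes left out by name, so they can differ from ratios of the printed CPM. Alternatives were DESeq2 1.42.0, its size factors, no filter, other cell sets, other gates, blocks and leaving out a library. The pipeline was tested on simulated data. Other versions were R 4.3.3, Python 3.11.15, numpy 2.4.6, scipy 1.17.1, pandas 2.3.3 and matplotlib 3.10.9.

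The WT-labelled and KO-labelled libraries of a pool share a droplet run, which makes the pool a pairing given by the labels. Their deviations from the group means correlated at 0.263 in the spleen, 0.157 among DN1-DN3 cells and 0.0596 for thymic γδ T cells. The members and gene lists were chosen with earlier results of these data known. Named were the 7 members, from each list the called genes with the 2 largest rises and 2 largest falls per compartment, and the 3 genes most like each member. Some genes that this rule takes are not reported here.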

Additional observations from a re-analysis of the deposited data

Results flagged for a closer look

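Each result here is a difference between groups in the KO-WT difference, tested by edgeR as an interaction and given on the log2 scale. Groups of 2 libraries were not screened for single libraries that stand apart. Between splenic and thymic γδ T cells the KO-WT difference differed by -2.39 for Tcf7, -1.32 for Lef1, 0.74 for Bcl11b, 1.27 for Gata3, -0.68 for Satb1 and -1.90 for Myb. Between thymic γδ T cells and DN1-DN3 cells it differed by -0.96 for Tcf7, -1.88 for Lef1, -1.50 for Gata3 and -1.50 for Myb. In the spleen, Satb1 differed between Trgv6-called cells and cells with another Trgv call by 1.08. In the thymus, Cd24a-high cells differed from cells without a Cd24a UMI by 1.68 for Tcf7, 1.56 for Lef1, 0.65 for Bcl11b, 1.37 for Gata3 and 1.98 for Myb. Compartment and droplet run cannot be told apart in the first 2 of these comparisons, nor can sex in the first. Xist and Ddx3y also differed among the thymic libraries, and their part in the comparison of thymic γδ T with DN1-DN3 cells was not tested. The last 2 compare classes of the same libraries, but the fits took the classes of a library as separate samples. Their p-values thus do not measure the spread within libraries, and no fit with the library as a block was run for them.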

How the results depend on the processing

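Over 1722 alternative values of the log2 differences of the 7 genes, 1585 kept their side of the threshold, 71 were no longer called, 66 became called and 0 reversed a call. Among the 1585 were 63 that changed sign where neither value was called. Of the 7 genes, the number called in the KO-WT comparison of DN1-DN3 cells went from 2 to 4 with DESeq2 and with the pool as replicate block, to 1 without cells with an Il2rb or Trac UMI (chosen after seeing the data), to 0 with only the 4 libraries of the compartment, and to between 0 and 5 without 1 library. From the Kit to the Ptcra gate with the label WT it went from 2 to 5 with the pool or the library as block, to 4 with the stricter gates and to 0 without either library. With the label KO it went from 2 to 5 with the pool and 6 with the library as block, and to 1 with cells in both gates counted in both, with cells thinned before gating and without either library. The KO-WT comparison in the Kit gate and that in the Ptcra gate each went from 1 to 2 with the pool block and to between 0 and 1 without 1 library, and their difference from 0 to 1 with the library block. For splenic Trgv6-called cells the number went from 3 to 5 with DESeq2 and 6 with the pool block, and for the Trgv interaction from 1 to 2 with DESeq2, 3 without a filter, 3 with the pool block and between 0 and 3 without 1 library. Among Cd24a-high cells it went from 1 to 2 with DESeq2 and with the pool block, to 0 with at least 4 Cd24a UMIs and to between 0 and 1 without 1 library; for the Cd24a interaction from 5 to between 3 and 5 without 1 library; and between WT-labelled Cd24a classes from 4 to 0 without cells with a Mki67 or Top2a UMI and to 1 without either library. Where a library was left out, the lone one was assumed to vary like the rest. The pool block moved no other number of called members by more than 1.5 times. The mean number of the 7 genes with a UMI per cell differed by -1.70 in the spleen, -1.51 at 2000 UMIs, and by -1.90 in thymic γδ T cells, -2.04 unthinned and -1.73 at 2000 UMIs. The number of all genes called ranged, over the settings other than leaving out a library, between 1699 and 4278 among DN1-DN3 cells (3424 as reported), 535 and 2833 between the gates with the label WT (1005), 668 and 3832 with the label KO (1577), 373 and 1897 in the Kit gate (1076), 591 and 3436 in the Ptcra gate (1782), 5 and 745 for their difference (17), 106 and 1245 in Cd24a-high cells (868), 1526 and 3681 for the Cd24a interaction (3407) and 1136 and 7070 between WT-labelled Cd24a classes (6622). Without 1 library it ranged between 1677 and 5038 among DN1-DN3 cells, 141 and 204 between the gates with the label WT, 564 and 1151 with the label KO, 324 and 1059 in the Kit gate, 658 and 1875 in the Ptcra gate, 0 and 42 for their difference, 360 and 1336 in splenic Trgv6-called cells (1649 as reported), 598 and 1322 for the Trgv interaction (1565), 172 and 647 in Cd24a-high cells, 4622 and 7741 in cells without Cd24a (7367), 1386 and 2689 for the Cd24a interaction, 2461 and 3281 between WT-labelled Cd24a classes, 2639 and 3613 for the spleen-thymus interaction (4408) and 1883 and 3945 for that of thymic γδ T and DN1-DN3 cells (3259), so the shares of all genes called that stand beside the members' counts move with the libraries used. The cause was not tested.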
